A study of Homo sapiens with 12 samples.

Results

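Libraries of 1 cell line were compared at matched drug dose, namely the 4 libraries labelled number 11 with the 4 labelled number 8, which together are 8 of the 12 libraries of the series. The libraries were chosen by the number in the sample titles, where it follows the letter p, and not by any measured value. What the number marks is not stated. The design text calls libraries of equal dose biological replicates. HEYA8 is an established human ovarian cancer cell line. The cells of number 11 and of number 8 were kept in DMEM with fetal bovine serum and were exposed for 48 h to 0 (vehicle), 1, 5 or 10 µM of the drug colforsin daropate, with 1 library per number and dose. Colforsin daropate is a soluble relative of forskolin and switches on adenylyl cyclase, the enzyme that makes cyclic AMP. Libraries were made from total RNA after removal of ribosomal RNA. The 4 libraries of number 6, given the same doses, entered only an alternative fit and are otherwise shown for position.

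Dividing cells switch on genes in waves. Genes for DNA replication and for the histones that package new DNA serve S phase, and genes for chromosome condensation, spindle assembly and cytokinesis serve G2 and mitosis. Many mitotic genes carry a CHR element and CCAAT boxes close to their start, which are read by cell cycle repressor and activator complexes. Cytokine genes such as CXCL8 and IL6 answer to NF-kB, a transcription factor released by inflammatory signals, and many tumour cell lines make them without immune cells.

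The differences between number 11 and number 8 were small, and the limma test that takes dose as a block called none of them. Of 16841 genes tested, 0 were higher and 0 lower in number 11 at a Benjamini-Hochberg adjusted p under 0.05 (0.0% called), the smallest limma adjusted p was 0.173, and 2332 genes had an unadjusted p under 0.05. Levels and differences are given on the deposited variance-stabilised scale, which runs like log2 for abundant genes and flattens to a floor of 4.86, and a mean difference is number 11 minus number 8 averaged over the 4 doses. The median absolute mean difference was 0.06, its 99th percentile was 0.33, and 0 genes reached 1. The 95% confidence interval lay within ±0.5 for 97.1% of genes and within ±1 for 99.9%, which bounds the size of the differences that the test did not call.

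The count of 0 depended on how the spread was estimated. Values of 10 or more are deposited in steps of 0.1, and 189 genes (1.12%) had the same difference at all 4 doses, hence no residual spread. Without these 189 genes the same limma fit called 224 genes higher (1.35% of 16652) and 359 lower (2.16%), of which 184 and 248 had 1 sign at all 4 doses. The weight of the spread shared by genes (prior degrees of freedom) was 248 in that fit, against 2.356 with all genes. A gene's own spread over the doses therefore counted little there. That fit called ENSG00000213058, whose differences were -3.83, 0.0, 0.21 and 0.13 at 0, 1, 5 and 10 µM (limma adjusted p = 2.06e-08). A limma-voom fit on read counts recovered from the deposited values called 79 genes higher (0.469%) and 253 lower (1.5%). Voom called 0 in either direction without the dose block or with the libraries of number 6 in the fit, and 31 higher and 101 lower without the 0 µM pair. Of the calls, 75 of the 79 and 230 of the 253 were also called without the 189 genes, which is 33.5% and 64.1% of the longer lists. With no test, 1192 genes (7.08%) were higher in number 11 at all 4 doses and 1125 (6.68%) were lower, while 6313 had a tie at 1 dose or more. Each number has 1 library per dose, so a p-value of the main limma fit or of voom measures whether a difference recurs over the 4 doses. It does not measure the spread between independent cultures of a number, since libraries of 1 number may share a culture. In the fit without the 189 genes the p-value rests largely on the shared spread. A sign-flip test over 4 pairs cannot go below 0.125 for a single gene.

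Most genes that peak in G2 and mitosis were lower in number 11 at each dose. Of 36 such genes tested, 30 were lower at 4 of 4 doses and 0 were higher at 4 of 4, and all 36 had a mean difference below 0. The median difference of the list was -0.35, beside 0.01 over all genes tested, and by dose it was -0.32 at 0 µM, -0.43 at 1 µM, -0.41 at 5 µM and -0.20 at 10 µM. Limma called 0 of the 36, voom called 28 lower, and limma without the genes of no residual spread called 29 lower. All mean differences lay between -0.58 and -0.01. In bulk RNA, fewer cycling cells and less of this RNA per cell cannot be told apart.

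TOP2A, the topoisomerase that untangles chromosomes before they separate (chromosome 17, 40388516 to 40417950, minus strand, GRCh38), had levels of 11.1, 12, 11.6 and 11.5 in number 11 at 0, 1, 5 and 10 µM, against 11.5, 12.5, 12.4 and 12 in number 8. It was lower in number 11 at every dose, although the ranges of the 2 numbers overlap. Its mean difference was -0.55 ± 0.07 (SE, 4 pairs), with limma adjusted p = 0.173 and voom adjusted p = 1.87e-05, and its recovered counts in number 11 were 65.9% of those in number 8. CENPF, a kinetochore protein (chromosome 1, 214603195 to 214664588, plus strand), stood at 10.2, 10.7, 10.3 and 10.2 in number 11 and at 10.7, 11.2, 11.1 and 10.7 in number 8. The highest library of number 11 matched the lowest of number 8, and the mean difference was -0.58 ± 0.06 (limma adjusted p = 0.173, voom adjusted p = 1.87e-05). CDK1, the kinase that drives entry into mitosis (chromosome 10, 60778331 to 60794852, plus strand), had 9.55, 10.2, 10.0 and 9.61 in number 11, against 9.89, 10.7, 10.4 and 9.93 in number 8. Its mean difference was -0.39 ± 0.04 (limma adjusted p = 0.173, voom adjusted p = 3.04e-04).

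MKI67, the source of the Ki-67 proliferation antigen, had 9.26, 9.74, 9.27 and 9.28 in number 11 and 9.63, 10.2, 10.1 and 9.70 in number 8, a mean difference of -0.52 ± 0.08 (limma adjusted p = 0.218, voom adjusted p = 3.04e-04). CCNA2 and CCNB1, which encode the cyclins that activate CDK1, had mean differences of -0.39 and -0.36. CDC20, an activator of the anaphase-promoting complex, had a mean difference of -0.31, and each of these 3 passed the voom test. FOXM1, a transcription factor for G2 genes that stood outside the list and was picked after its values were seen, had a mean difference of -0.46 ± 0.07 (limma adjusted p = 0.201, voom adjusted p = 4.58e-04). PRC1, which bundles spindle microtubules, was the member nearest to 0, at -0.01 ± 0.13 (limma adjusted p = 1.0). Its level of 5.89 to 6.57 over the 8 libraries was close to the floor, and an antisense gene at the same locus may share its reads, since the strand setting of the counting is not known.

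The promoter stretches of 3 of these genes are shown because they hold both elements named above and belong to members that voom called lower. They are the 130 bases before the RefSeq start of each gene (GRCh38.p14), 5′ to 3′ on the gene's strand, and the capitals mark each match to the CHR letters TTTGAA or to CCAAT on either strand.
MKI67 (chr10:128126424-128126553, minus strand): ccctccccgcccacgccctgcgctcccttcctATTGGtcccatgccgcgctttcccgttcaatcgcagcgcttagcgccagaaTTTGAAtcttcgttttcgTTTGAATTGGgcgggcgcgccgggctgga
KIF4A (chrX:70289974-70290103, plus strand): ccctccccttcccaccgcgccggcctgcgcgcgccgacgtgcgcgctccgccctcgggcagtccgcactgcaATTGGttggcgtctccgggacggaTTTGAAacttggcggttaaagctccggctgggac
KIF23 (chr15:69414219-69414348, plus strand): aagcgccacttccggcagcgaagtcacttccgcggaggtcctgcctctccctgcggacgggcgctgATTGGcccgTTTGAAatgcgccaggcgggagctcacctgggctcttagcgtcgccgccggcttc

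In MKI67 the second CHR match and the second CCAAT match share 1 base. KIF4A, a motor of condensed chromosomes, and KIF23, a motor of the cleavage furrow, had mean differences of -0.48 ± 0.07 and -0.46 ± 0.07. RefSeq gave a promoter of 300 bases (250 before the start and 50 after) for 31 of the 36 genes of the G2 and mitosis list. TTTGAA stood on either strand in 19 of these 31 (61.3%), against 9.97% of the 11270 promoters of tested genes, and both TTTGAA and CCAAT stood in 17 (54.8%, against 4.25%). Of 35 promoters of the DNA replication list, 1 held TTTGAA (2.86%), while 20 held CCAAT (57.1%, against 36.4% of all). Of 41 histone promoters, 14 held TTTGAA (34.1%) and 10 held both TTTGAA and CCAAT (24.4%), so these letters were not confined to the G2 and mitosis list. A match is a run of letters and not a measured binding site. These shares cover whole lists, and called and uncalled members were not compared.

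Genes of G1/S and DNA replication had smaller differences in the same direction. Of 41 tested, 23 were lower at 4 of 4 doses, 0 were higher at 4 of 4, and the median difference was -0.17. Limma called 0, voom called 14 lower (5 without the 0 µM pair) and limma without the genes of no residual spread called 15. RRM2, a subunit of the reductase that makes deoxynucleotides, had 10.5, 11.1, 10.9 and 10.6 in number 11 at 0, 1, 5 and 10 µM, against 10.8, 11.4, 11.4 and 10.9 in number 8 (mean difference -0.35 ± 0.04, limma adjusted p = 0.173, voom adjusted p = 4.37e-04). TK1, which salvages thymidine in S phase (chromosome 17, 78174075 to 78187233, minus strand), had 9.08, 9.37, 8.98 and 8.61 in number 11 and 9.43, 9.89, 9.36 and 8.92 in number 8. Each library of number 11 was below its partner, by 0.39 ± 0.05 on average (limma adjusted p = 0.173, voom adjusted p = 9.02e-04). E2F2, a transcription factor of this programme, had the most negative mean difference of the list, -0.42 ± 0.13, from -0.01 at 0 µM and -0.75, -0.49 and -0.44 at 1, 5 and 10 µM, and passed neither limma (adjusted p = 0.321) nor voom (adjusted p = 0.0543). MCM7, part of the replicative helicase, was lower by 0.2 at each dose, and is 1 of the genes with no residual spread. PCNA, the sliding clamp of DNA polymerase, had 12.3, 12.1, 11.8 and 11.7 in number 11 and 12.2, 12.1, 11.9 and 11.7 in number 8, with a 95% interval of its difference from -0.10 to 0.10.

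Histone genes of S phase had negative medians too, which varied more over dose. Of 46 replication-dependent histone genes tested, 18 were lower at 4 of 4 doses and 0 were higher at 4 of 4. The median difference was -0.17, and by dose it was -0.20, -0.40, -0.01 and -0.15 at 0, 1, 5 and 10 µM. Limma called 0, voom called 15 lower (4 without the 0 µM pair and 28 without the 5 µM pair), and limma without the genes of no residual spread called 20. H1-5, a linker histone (chromosome 6, 27866849 to 27867529, minus strand), had 10.2, 11.1, 10.9 and 10.7 in number 11, against 10.7, 11.8, 11.2 and 11 in number 8. Its mean difference was -0.45 ± 0.08 (limma adjusted p = 0.218, voom adjusted p = 3.04e-04). H3C2, a core histone gene, had 9, 9.95, 9.94 and 9.71 in number 11 and 9.48, 10.7, 10.2 and 10.0 in number 8 (mean difference -0.44 ± 0.09, limma adjusted p = 0.218, voom adjusted p = 0.00117). Histone genes are near-identical copies, so reads may be split between members. The 3 lists together hold 123 distinct genes, among them 57 of the 253 genes that voom called lower (22.5%). Over all 16841 genes tested, voom called 1.5% lower.

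**Figure D1:**
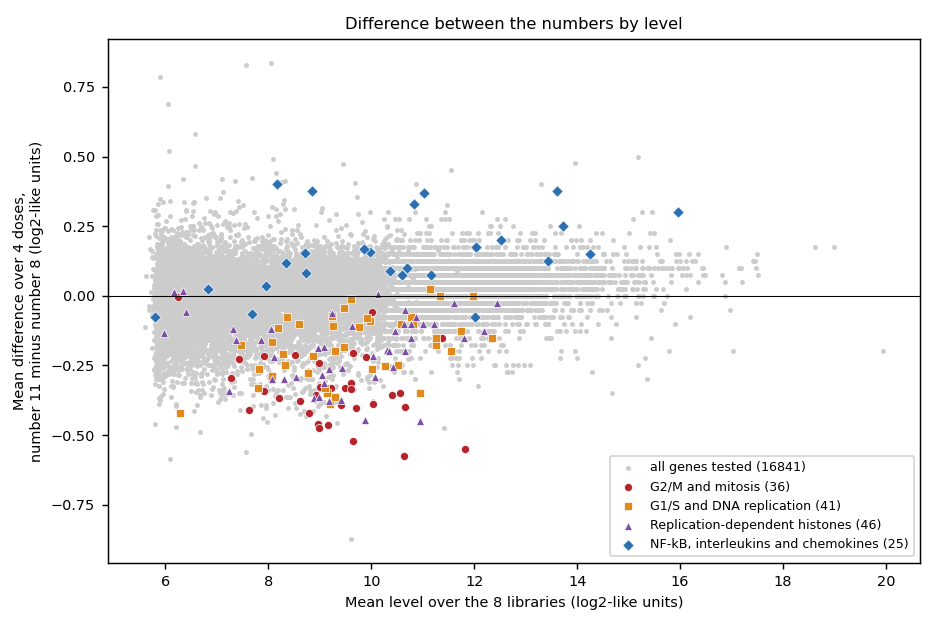
Mean difference over the 4 doses, number 11 minus number 8, against the mean level over the 8 libraries, both on the variance-stabilised scale, with 1 point per gene. The 36 genes of G2 and mitosis all lie below 0, and the genes of the interleukin and chemokine list lie between -0.08 and 0.40.

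A group of interleukin and chemokine genes was higher in number 11. Of 25 genes in the list of NF-kB targets, interleukins and chemokines tested, 11 were higher at 4 of 4 doses and 0 were lower at 4 of 4. The median difference was 0.15, and by dose it was 0.20, 0.10, 0.19 and 0.11 at 0, 1, 5 and 10 µM. Limma called 0, voom called 8 higher (IL1A, IL1B, IL6, IL11, IL33, CXCL1, CXCL3 and CXCL8), and limma without the genes of no residual spread called 9. Without the 0 µM pair voom called 5. Of all 16841 genes tested, 7.08% were higher at 4 of 4 doses and voom called 0.469% higher. Limma without the genes of no residual spread called 1.35% of 16652 higher.

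CXCL8, the chemokine that draws neutrophils (chromosome 4, 73740506 to 73743716, plus strand), had 13.3, 13.6, 14.2 and 14.1 in number 11 at 0, 1, 5 and 10 µM, against 12.9, 13.3, 13.8 and 13.7 in number 8. The difference was 0.4, 0.3, 0.4 and 0.4, a mean of 0.38 ± 0.03 (limma adjusted p = 0.173, voom adjusted p = 1.72e-04), and recovered counts in number 11 were 127% of those in number 8. IL6, an interleukin of the acute phase (chromosome 7, 22725884 to 22732002, plus strand), had 9.56, 11.1, 11.7 and 11.6 in number 11, against 9.14, 10.8, 11.4 and 11.3 in number 8. The mean difference was 0.33 ± 0.03 (limma adjusted p = 0.173, voom adjusted p = 0.00348). IL1B, a pro-inflammatory cytokine, had 15.1, 16.1, 16.6 and 16.6 in number 11 and 14.9, 15.9, 16.2 and 16.2 in number 8 (mean difference 0.30 ± 0.05, limma adjusted p = 0.218, voom adjusted p = 0.00288). IL33, an alarmin stored in nuclei, was equal at 0 µM (7.17 in both numbers) and higher in number 11 by 0.62, 0.44 and 0.55 at 1, 5 and 10 µM, and CXCL3, a CXCL8-related chemokine, was higher by a mean of 0.38 ± 0.07. TNF, a cytokine that activates NF-kB, did not share the direction, with 8.27, 7.99, 7.26 and 7.07 in number 11 against 8.34, 7.89, 7.27 and 7.35 in number 8 (mean difference -0.06 ± 0.07, limma adjusted p = 0.744). CXCL8, IL6 and IL1B also rose with dose in the fit of both numbers, while CXCL3 fell with dose and was still higher in number 11 at each dose.

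The stretches below are shown because a match to the NF-kB letters GGANTTTCC (N is any base, either strand) stands close to the start of these 3 chemokine and interleukin genes. They are again the 130 bases before the RefSeq start (GRCh38.p14), with the match in capitals.
CXCL8 (chr4:73740439-73740568, plus strand): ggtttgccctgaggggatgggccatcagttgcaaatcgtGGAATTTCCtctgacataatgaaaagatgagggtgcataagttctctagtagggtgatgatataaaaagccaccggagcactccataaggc
CXCL3 (chr4:74038690-74038819, minus strand): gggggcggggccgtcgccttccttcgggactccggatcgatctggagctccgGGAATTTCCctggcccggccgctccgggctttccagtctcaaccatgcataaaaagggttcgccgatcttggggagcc
IL6 (chr7:22727070-22727199, plus strand): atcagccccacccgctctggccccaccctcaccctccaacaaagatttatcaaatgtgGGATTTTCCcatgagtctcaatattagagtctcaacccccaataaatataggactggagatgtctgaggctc

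The letters stood in 9 of the 20 promoters found for this list (45.0%), against 1.68% of all 11270, and in 0 of the 31 promoters of the G2 and mitosis list. The list was drawn up to hold NF-kB targets, so a high share follows from how its members were picked. Called and uncalled members were not compared, so the share does not bear on the difference between the numbers.

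Other genes that voom called higher belong to several lists. F3, the tissue factor that starts coagulation and a member of the list of YAP/TEAD targets (chromosome 1, 94529225 to 94541800, minus strand), had 10.9, 11.5, 12.2 and 12.5 in number 11, against 10.5, 11, 11.8 and 12 in number 8. Its mean difference was 0.45 ± 0.03 (limma adjusted p = 0.173, voom adjusted p = 1.26e-04). Of the 22 YAP/TEAD targets tested, 11 had a mean difference above 0 and 11 below, and the median of the list was -0.01. TXNIP, an inhibitor of thioredoxin that is high in cells at rest and belongs to the list of CDK inhibitors and quiescence genes, had 14.4, 13.9, 13 and 12.7 in number 11 and 14.1, 13.5, 12.7 and 12.1 in number 8 (mean difference 0.40 ± 0.06, limma adjusted p = 0.201, voom adjusted p = 4.59e-04). BTG1, an antiproliferative gene of the same list, was higher by 0.22 ± 0.03 (voom adjusted p = 0.0204). Its other members did not pass voom. CDKN1A, the p21 inhibitor of cyclin-dependent kinases, had 14.7, 14.1, 14.2 and 14.3 in number 11, against 14.6, 14.1, 13.9 and 14.1 in number 8, a mean difference of 0.15 ± 0.05 (limma adjusted p = 0.359, voom adjusted p = 0.269). EPAS1, the hypoxia-inducible factor subunit HIF-2 alpha, was higher by 0.28 ± 0.03 and NAMPT, an enzyme of NAD salvage, by 0.3 at each dose, and both passed voom.

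**Figure D2:**
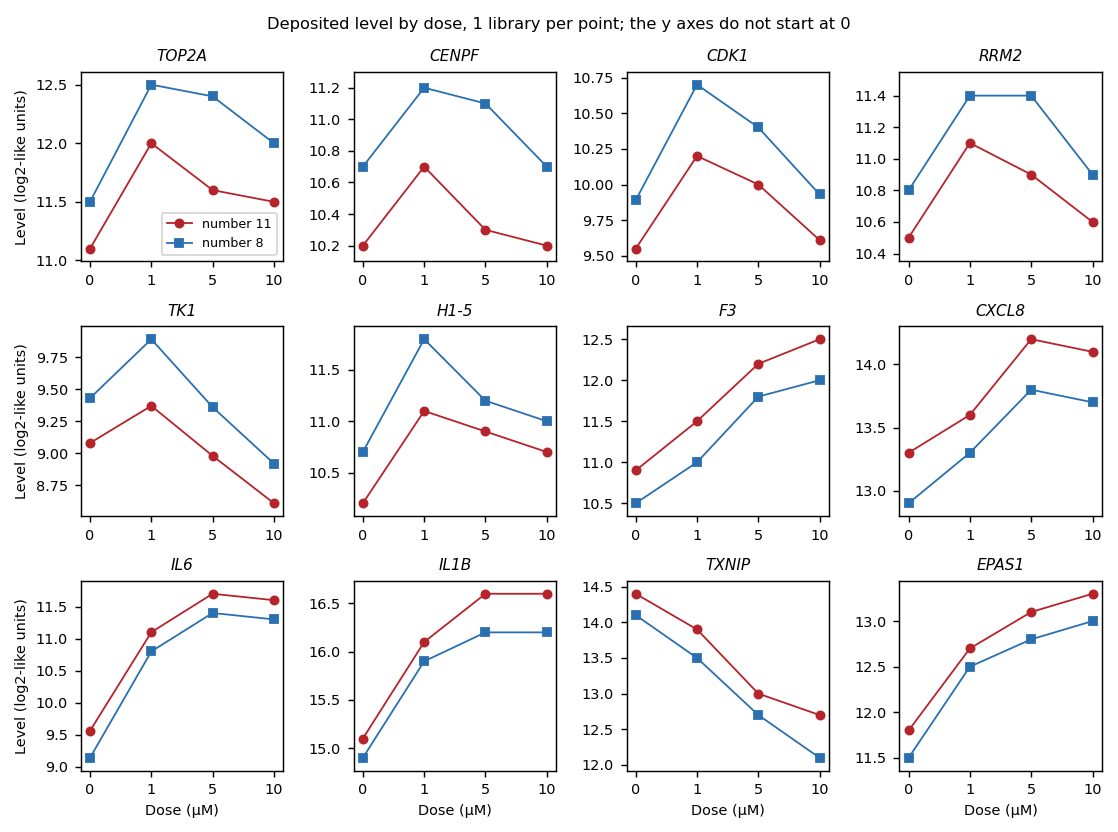
Deposited level of 12 genes by dose in number 11 and number 8, with 1 library per point, on the variance-stabilised scale. TOP2A, CENPF, CDK1, RRM2, TK1 and H1-5 are lower in number 11 at every dose, and F3, CXCL8, IL6, IL1B, TXNIP and EPAS1 are higher at every dose.

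Among genes of hypoxia and glycolysis, 10 of 33 tested were higher in number 11 at 4 of 4 doses and 0 were lower at 4 of 4. Their median difference was 0.12, and by dose it was 0.00, 0.10, 0.20 and 0.20 at 0, 1, 5 and 10 µM. For comparison, 7.08% of all genes tested were higher at 4 of 4 doses, and voom called 0.469% higher and 1.5% lower. Limma called 0 of the 33 and voom called 3 higher: LDHA, which makes lactate, ADM, the hypoxia-responsive peptide adrenomedullin, and ERO1A, an oxidase of the endoplasmic reticulum. ADM had 11.4, 11.5, 11.7 and 11.7 in number 11, against 11.2, 11.2, 11.2 and 11.5 in number 8. For antigen presentation, 6 of 16 genes were higher at 4 of 4 doses and voom called 0 of them. HLA-B, a class I antigen, had the largest mean difference of that list together with HLA-C, 0.22 ± 0.05 (limma adjusted p = 0.218, voom adjusted p = 0.0592). Of 16 heat shock genes, voom called 3 lower, among them HSPA1A (-0.28 ± 0.05) and HSPA1B (-0.31 ± 0.04), which are near-identical copies of the inducible HSP70 gene whose reads may be split between them. FOSB, an immediate early gene, had 7.49, 7.48, 7.23 and 6.90 in number 11 and 8.32, 7.61, 7.69 and 7.72 in number 8 (mean difference -0.56 ± 0.13, limma adjusted p = 0.218, voom adjusted p = 0.00570).

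Other programmes had smaller medians. Apart from the 3 cell cycle lists and those of interleukins and of hypoxia, 40 lists with 3 or more tested genes had medians between -0.08 and 0.10. Limma called 0 members in any list. The 76 cytosolic ribosomal protein genes had a median of 0.10, and by dose it was 0.10, 0.00, 0.20 and 0.20 at 0, 1, 5 and 10 µM. Of these 76 genes, 70 had a mean difference above 0, against 9649 of all 16841, while 3 were higher and 1 lower at 4 of 4 doses and voom called 0. The 13 mitochondrially encoded genes of the respiratory chain had medians of -0.20, -0.50, 0.05 and 0.29 at 0, 1, 5 and 10 µM, so their sign depended on the dose. MYC, the transcription factor named in the title of the series, had 13, 12.5, 12.3 and 12.2 in number 11, against 12.9, 12.6, 12.3 and 12.3 in number 8. Its mean difference was -0.02 ± 0.04, with a 95% interval from -0.13 to 0.08 (limma adjusted p = 0.823). The list of ribosome biogenesis and MYC targets had a median of -0.02, and voom called 2 of 35 lower. By chromosome, the median difference ran from -0.0025 to 0.025 over 23 chromosomes, and was -0.0125 over 24 mitochondrial genes.

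**Figure D3:**
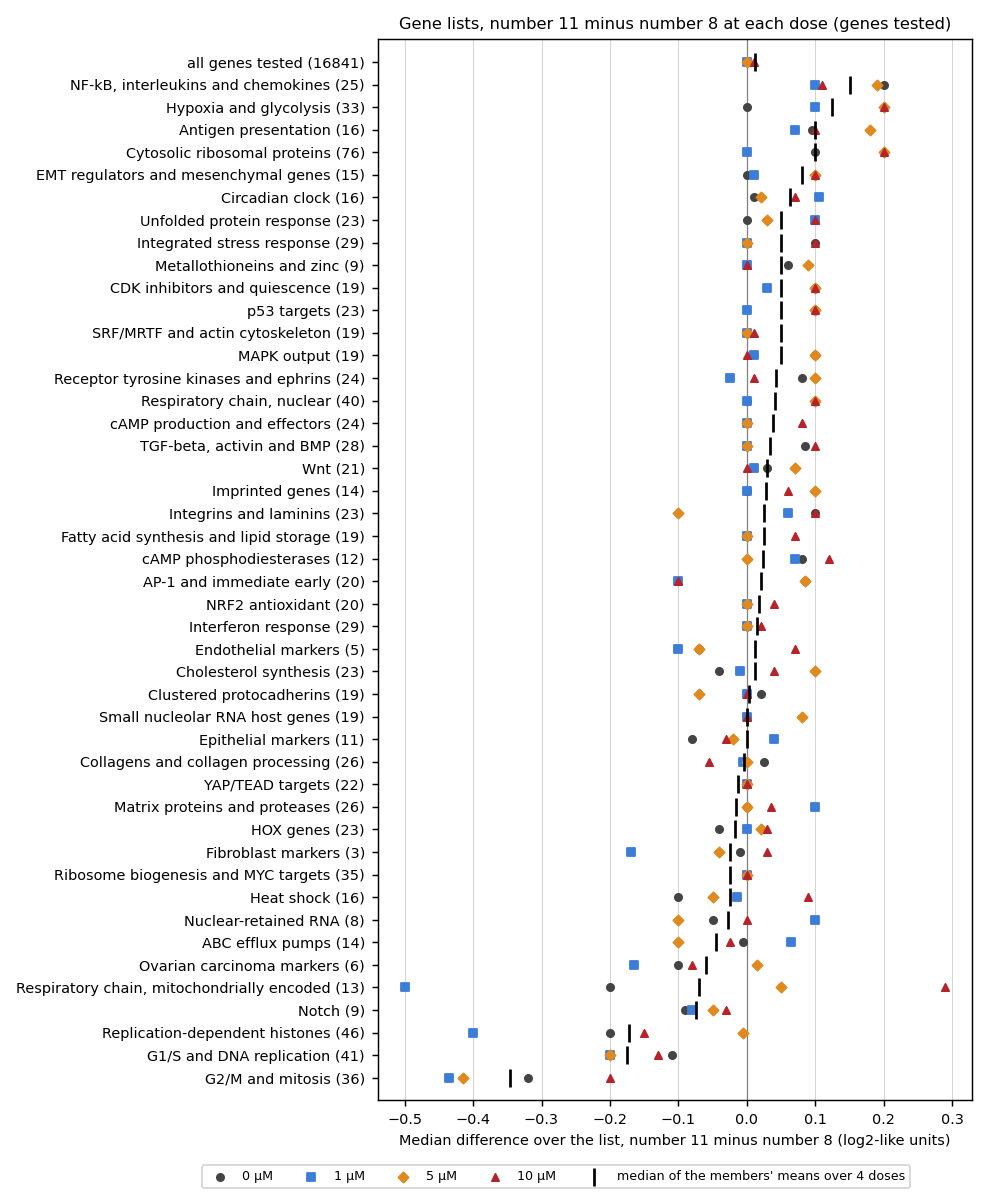
Median difference, number 11 minus number 8, over the tested genes of each list at each dose on the variance-stabilised scale. The black marks are the median over the list of each gene's mean over the 4 doses, and the number of genes is in brackets. The G2 and mitosis list lies lowest at -0.35, the interleukin list highest at 0.15, and the mitochondrially encoded list spans -0.50 to 0.29.

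Set beside number 6, the G2 and mitosis genes of both numbers stood low without drug. The median level of the G2 and mitosis list was 8.68, 9.49, 9.21 and 9.09 in number 11 at 0, 1, 5 and 10 µM. It was 8.93, 9.87, 9.70 and 9.37 in number 8 and 11.2, 11.1, 10.4 and 9.35 in number 6. Number 11 was the lowest of the 3 at each dose, and number 6 was the highest at 0, 1 and 5 µM and next to number 8 at 10 µM. UBE2C, H3C3, H1-5 and PRR11, 4 genes of cell division or chromatin among the 20 with the steepest fall over dose in number 6, had slopes per dose step between 0.02 and 0.13 in number 11 and between -0.04 and 0.06 in number 8. Of the 253 genes voom called lower in number 11, number 6 lay above both numbers in 177, between them in 52 and below both in 24. Of the 79 called higher it lay above both in 26, between them in 21 and below both in 32. These positions use the mean level over the 4 doses, and no test was made.

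**Figure D4:**
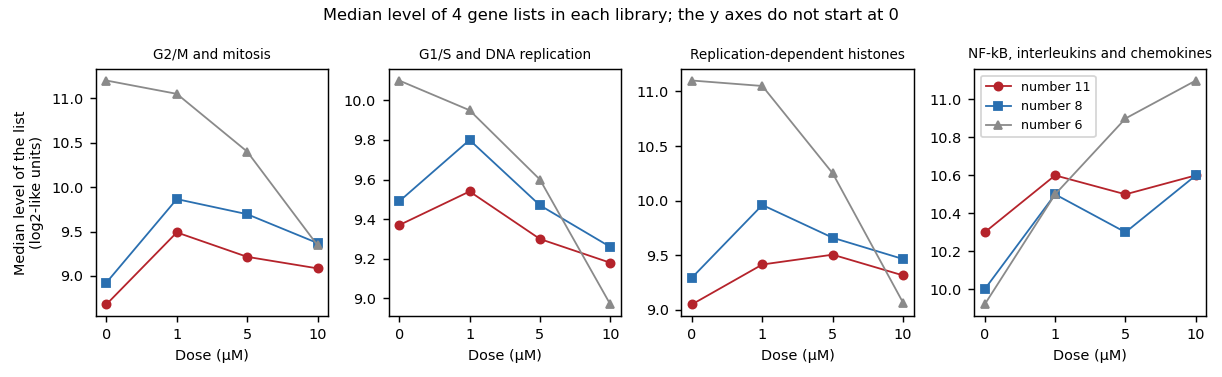
Median level of 4 gene lists in each library by dose, on the variance-stabilised scale, for numbers 11, 8 and 6. In the 3 cell cycle lists number 11 lies below number 8 at every dose, and number 6 lies above both without drug and at 1 µM.

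Slopes were fitted per step of dose rank. With numbers 11 and 8 in 1 fit, 2722 genes rose with dose and 3016 fell (34.1% of 16841). Across all 16841 genes, which are not independent replicates, the Pearson correlation between the slope in number 11 and that in number 8 was 0.89, given as a description. Without the 0 µM libraries 687 genes rose and 1014 fell. The difference in slope between number 11 and number 8 passed limma for 0 genes (0.0%), and voom also called 0, with 244 and 233 genes at an unadjusted p under 0.05. Its 95% interval lay within ±0.5 per dose step for 98.9% of genes. Of the 332 genes voom called between the numbers, 116 also had a called dose slope (34.9% of them and 2.02% of the slope calls), near the background of 34.1%.

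The 6 genes with a symbol and the smallest p for the slope difference were CASTOR1, MAST3-AS1, GRIN3A, DNAAF1, LINC00852 and TAF1C, all with limma adjusted p = 1.0. CASTOR1, an arginine sensor of mTORC1, had 6.13, 6.26, 6.25 and 6.32 in number 11, against 5.57, 5.94, 6.27 and 6.58 in number 8. It was nearly flat in number 11 and climbed in number 8, a slope difference of -0.28 ± 0.07 per step that did not pass the test. Its level of 5.57 to 6.58 was close to the floor. DNAAF1 and TAF1C overlap on opposite strands, so their reads may not be told apart.

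The 20 steepest rises and 20 steepest falls over dose in number 6 gave a list chosen without the slopes of numbers 11 and 8. All its members are genes tested, so they passed the filter on levels in numbers 11 and 8. Over the 20 rises the median slope was 1.03 in number 11 and 0.99 in number 8, with a slope above 0 for 20 of the 20 in number 11 and for 18 in number 8. Over the 20 falls it was -0.61 in number 11 and -0.61 in number 8, with a slope below 0 for 15 of the 20 in number 11 and for 17 in number 8. PTGES, a prostaglandin E synthase, had slopes of 1.33 in number 11 and 1.21 in number 8. PDE3A, a phosphodiesterase that breaks down cyclic AMP, had 0.80 in number 11 and 0.67 in number 8.

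**Figure D5:**
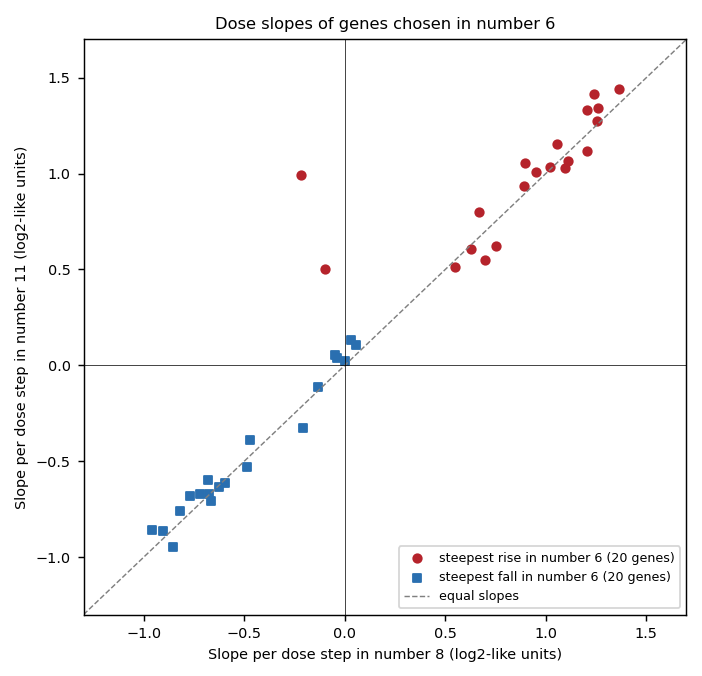
Slope per dose step in number 11 against that in number 8 for the 40 tested genes with the steepest slopes in number 6. Slopes are on the variance-stabilised scale, with a dashed line of equal slopes. The points farthest from the line are PRRG3, at 0.51 in number 11 and -0.10 in number 8, and ENSG00000213058, at 0.99 in number 11 and -0.22 in number 8.

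PRRG3, a membrane protein with a Gla domain, had 8.56, 5.14, 9.38 and 8.83 in number 11 at 0, 1, 5 and 10 µM, against 4.86, 9.92, 8.95 and 4.86 in number 8, so it was at or near the floor in 3 of 8 libraries and abundant in the others. ENSG00000213058, a processed pseudogene (chromosome 1, 178411616 to 178411972, plus strand), had 6.57, 10.2, 10.0 and 9.94 in number 11, against 10.4, 10.2, 9.79 and 9.81 in number 8. PRRG3 and ENSG00000213058 are 2 of 17 genes with a difference of 1 or more at some dose. Of the 17, 11 are short RNAs of the class misc_RNA, of which all but RNY4 are the 7SL RNA or its copies.

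Among small RNA genes the medians of the mean difference over the 4 doses were above 0, but not the medians at each dose. For the 168 small RNA genes together the median was 0.185, 0.0, 0.215 and 0.14 at 0, 1, 5 and 10 µM. The 40 genes of the class misc_RNA had a median of 0.17, but of -0.1 at 1 µM. The 74 small nucleolar RNA genes had a median difference of 0.18. Of these, 31 were higher and 4 lower at 4 of 4 doses, and voom called 15 higher and 2 lower. Among all genes tested, 7.08% were higher and 6.68% lower at 4 of 4 doses, and voom called 0.469% higher and 1.5% lower. The 10 small Cajal body RNA genes had a median of 0.22. Among 44 small nuclear RNA genes the median was 0.08, with 7 higher and 6 lower at 4 of 4 doses. Voom called 2 of these higher, RNU4-2 and RNU4-1, and 1 lower. RNU4-2, a U4 RNA of the spliceosome (chromosome 12, 120291763 to 120291903, minus strand), had 15.2, 15.3, 15.7 and 15.5 in number 11, against 14.7, 15, 15.2 and 14.8 in number 8. Its lowest library in number 11 equalled the highest in number 8, and the mean difference was 0.50 ± 0.07 (limma adjusted p = 0.173, voom adjusted p = 4.36e-05). RNU4-1, a near-identical copy, had a mean difference of 0.48 ± 0.07, and reads may be split between the pair. Among protein-coding genes the median was 0.02, and it was -0.025 for the 330 whose exons add up to more than 16000 bases, of which voom called 21 lower and 1 higher.

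The libraries also differed in technical measures. Reads on genes came to 37.0 to 46.9 megareads in number 11 and 38.4 to 48.6 megareads in number 8, as recovered from the deposited values. The share of reads aligned to more than 1 place was 25.6%, 21.4%, 22% and 21.2% in number 11 at 0, 1, 5 and 10 µM, against 23.7%, 20.7%, 19.7% and 20.02% in number 8, higher in number 11 at each dose. These shares are recovered from values deposited in steps of 0.1, so gaps as small as those at 1 and 10 µM may be rounding. The part of this share in the results was not tested. RN7SL1, the 7SL RNA of the signal recognition particle, had 19.6, 18.4, 18.7 and 19.6 in number 11 and 18.5, 19.5, 19.3 and 18.3 in number 8, higher in number 11 at 0 and 10 µM and lower at 1 and 5 µM. By dose, the medians of the G2 and mitosis list were below 0 and those of the interleukin list above 0 at all 4 doses. Whether the level of RN7SL1 bears on these medians was not tested. With small RNA genes left out of the fit and of the read totals, voom called 59 genes higher and 234 lower in number 11.

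The label of the cell line was checked against markers. Of 10 ovarian carcinoma markers listed, 8 were in the table and 6 passed the filter, while MUC16 and CDH1 were not in the table. PAX8, a Müllerian lineage factor of ovarian carcinoma, had 12.5, 13.2, 13.4 and 13.4 in number 11 and 12.5, 13.1, 13.2 and 13.3 in number 8, and KRT7, KRT8 and KRT18, keratins of simple epithelium, were at 11.5 to 14.1. KRT7 was lower in number 11 at 4 of 4 doses (mean difference -0.20 ± 0.04, limma adjusted p = 0.218, voom adjusted p = 0.00757). WT1, a transcription factor of serous ovarian tumours, was at 7.31 to 7.73, and CLDN4, a tight junction protein, was at 6.4 to 6.65. KRT19, another keratin of simple epithelium, was at 4.86 to 5.90 and EPCAM, an epithelial adhesion molecule, at 5.45 to 5.72, so both were at or near the floor and did not pass the filter. Of 8 leukocyte markers listed, 3 were in the table and 0 passed the filter, and their summed normalised count was 6.3 to 14.1 in number 11 and 8.9 to 19 in number 8. The 4 fibroblast markers in the table summed to 275 to 428 in number 11 and 263 to 442 in number 8. The 5 endothelial markers summed to 1958 to 4199 in number 11 and 2089 to 4827 in number 8, most of it from CDH5 at a level of 10.8 to 12.2, and this sum was lower in number 11 at each dose.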

How the data were processed

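The deposited values are log2-like variance-stabilised expression levels made by the authors, who used DESeq2 and build GRCh38 (hg38) per the submitters' processing notes. For aligner, counting tool and strand setting, nothing is given in the sources used here. There are 21211 entries for 12 libraries. Of these, 4 name no gene and stayed out of tests: over the 8 libraries, reads on no feature made up 36.2% to 40.04%, ambiguous reads 2.58% to 2.94%, reads not aligned 0.793% to 1.72% and reads aligned to several places 19.7% to 25.6%. A symbol was found for 21166 genes. Inverting the stabilising curve (dispersion 0.0355, extra term 3.13) gave reads: 98.7% of 59509 values below 6 came out whole within 0.0055. Counts cover counting error only, and from level 10 they carry rounding of 0.1.

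Tested were the 16841 genes that exceeded the floor by more than 1 in 4 or more of the 8 libraries, with limma 3.58.1 in R 4.3.3, with dose as block, a variance trend and Benjamini-Hochberg adjustment, two-sided. The fits were run on simulated data with known answers. Those data left out the smallest residual spreads and, for voom, held no dose effect. They therefore do not bear on why the main limma fit called no gene. Libraries of equal dose deviated together from their group means (correlations 0.893, 0.411, 0.57 and 0.765 at 0, 1, 5 and 10 µM), so the doses pair them. Alternatives were voom on recovered counts, other scalings and filters, no block, all 12 libraries and each dose left out.

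Named were, by rule, the 12 largest called differences each way (there were none), 6 genes for slope, up to 4 called or else 2 members per list, and MYC. Other genes were chosen after their values were seen, and the comparison and the 47 lists with earlier results of these data known. Chromosome arms were not analysed.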

Additional observations from a re-analysis of the deposited data

Results flagged for a closer look

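CENPF had 1 dose apart from the others: its difference, number 11 minus number 8, was -0.8 at 5 µM and -0.5 at each of 0, 1 and 10 µM, a gap that takes up all of the range (ratio 1, above Dixon's 95% limit for 4 values). It was the 1 item flagged among 123 genes and lists examined. Levels of 10 or more are deposited in steps of 0.1, so the tie at 0, 1 and 10 µM may come from rounding. An item with the same difference at all 4 doses has no range and cannot be flagged, so fewer than 123 may have been open to the flag. The chance rate of about 1 in 20 assumes values without such ties, so no conclusion is drawn from the flag.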

How the results depend on the processing

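The count of 0 genes higher and 0 lower held under 10 limma alternatives, among them no replicate block (0 genes, 404 at an unadjusted p under 0.05, against 2332 with it) and each dose left out in turn. Quantile normalisation called 1 higher, a median shift 193 higher and 169 lower, voom 79 and 253, and, added after seeing the data, removal of a trend with exon length 94 and 150, removal of genes with no residual spread 224 and 359, and a robust estimate of the shared spread 306 and 373. For voom, leaving out 1 dose gave 31 to 139 higher and 101 to 566 lower (fewest without 0 µM, most without 1 µM). With no replicate block or with all 12 libraries voom called 0 higher and 0 lower in total and 0 in each of the 4 lists below. Members called under the median shift and without genes of no residual spread numbered 24 and 29 for G2 and mitosis, 11 and 15 for DNA replication, 13 and 20 for histones, and 9 and 9 for interleukins. Leaving out 1 dose, voom called 23 to 29, 5 to 18, 4 to 28 and 5 to 9 of them. The slope difference was called for 1 gene with drug against no drug in place of dose rank. Shared slopes numbered 1675 higher with dose in µM, and 687 to 2708 higher and 1014 to 2935 lower with 1 dose left out. List medians stayed within their spread over doses or 0.05 of rounding in 179 of 180 alternatives, the exception being SRF/MRTF and actin cytoskeleton under quantile normalisation (-0.0062, against 0.05). All 48 chromosome medians did so. The nuclear chromosome medians ran only from -0.0025 to 0.025, inside the limit of 0.05, so they could change sign and still pass. Many list medians were also no larger than their limit, so this count says little about them. Causes were not tested beyond the genes with no residual spread. Of 2211 alternatives for 97 results on named genes, 360 passed the threshold where limma did not and 0 reversed.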
